A study of Arabis alpina with 12 samples.

Results

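In wild-type Arabis alpina, 55 of 35465 annotated genes met a strict measure of restriction to leaves, and they are described here across both organs and both genotypes. Genes were chosen by the ratio of the mean WT leaf level to the mean WT apex level, each in counts scaled to a library's summed reads (CPM) plus 1, with a log2 ratio of 4 or more required. The rule thus used the 3 WT leaf and 3 WT apex libraries, and the difference between those groups is given as a description with no test. The pep1-1 libraries took no part in the choice.

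Arabis alpina is a perennial relative of Arabidopsis. The compared groups were pep1-1 leaf, WT leaf, pep1-1 apex and WT apex, with 3 libraries each, all of the accession Pajares. Soil-grown plants were kept under long days at 22 °C, and tissue was taken at ZT8, 8 h into the light period. The sample labels give an age of 2 weeks and the series text a younger one. No label says that replicates were separate plants, so the p-values speak of the spread among these libraries, which may be technical. A single mutant line was used, and the mutation and any other difference of that line from Pajares cannot be told apart.

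The apex holds the meristem and the youngest primordia, whose cells divide, while expanded leaves are specialised for photosynthesis and for the defence and surface functions of an exposed organ. PEP1 is the orthologue of Arabidopsis FLC, a MADS-box transcription factor that represses flowering and that, in perennials, helps to limit flowering to a season. Identifiers could not be paired with names, so no function is given to any gene below, and loci are named by position in the coordinates of the deposited tables.

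Reads used per library ranged from 22483197 to 36295150 in pep1-1 leaf, 21841331 to 38819193 in WT leaf, 32022088 to 43695184 in pep1-1 apex and 19746210 to 33665939 in WT apex. No 2 replicates agreed within sampling noise (chi-square over degrees of freedom 5.38 to 83.2). Each was counted as its own sample, although this spread cannot show that they came from separate plants. The scaling matters for a contrast between organs. On the library-sum scale the median gene stood 0.52 (log2) higher in leaf than in apex in pep1-1 and 0.50 higher in WT, over 20725 genes at 1 CPM or more. TMM factors moved the WT median to 0.02, a shift of -0.49, and with them 36 genes met the threshold, all among the 55. Single leaf libraries also differed. WT leaf replicate 1 lay more than 0.5 (log2) below the mean of the other WT leaf libraries for 24 of the 55 genes, against 613 of 13330 genes at 10 CPM or more in WT leaf, so the tests between leaf groups are given with and without it. Without it 65 genes met the threshold, including all 55. WT leaf replicate 2 lay more than 0.5 above the mean of the others, replicate 1 among them, for 12 of the 55 (21.8%, against 2.28% of genes at that level). The lowest library of its group was pep1-1 leaf replicate 3 for 38 of the 55 genes and WT leaf replicate 1 for 32. Apex libraries were not compared in this way, and the largest chi-square values were between pep1-1 apex libraries.

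Together the 55 genes made up 1.02% ± 0.116 of the reads in pep1-1 leaf and 1.18% ± 0.0581 in WT leaf, and 0.0118% ± 0.00303 in pep1-1 apex and 0.0168% ± 0.00250 in WT apex (SD, n = 3 each). In these whole-organ samples, fewer cells of a type and less RNA per cell cannot be told apart. Their summed level was 11421, 9970 and 9122 CPM in the pep1-1 leaf libraries and 11141, 12032 and 12233 CPM in the WT leaf libraries, with WT leaf replicate 1 the lowest of its group. Leaf levels spanned a wide range. The lowest and highest mean were 11.3 and 2253 CPM in pep1-1 leaf, and 15.5 and 2724 CPM in WT leaf. In pep1-1 leaf 16 genes reached 100 CPM, and in WT leaf 22 did. The 10 genes with the highest levels held 71.4% of the summed level in pep1-1 leaf and 72.5% in WT leaf.

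**Figure D1:**
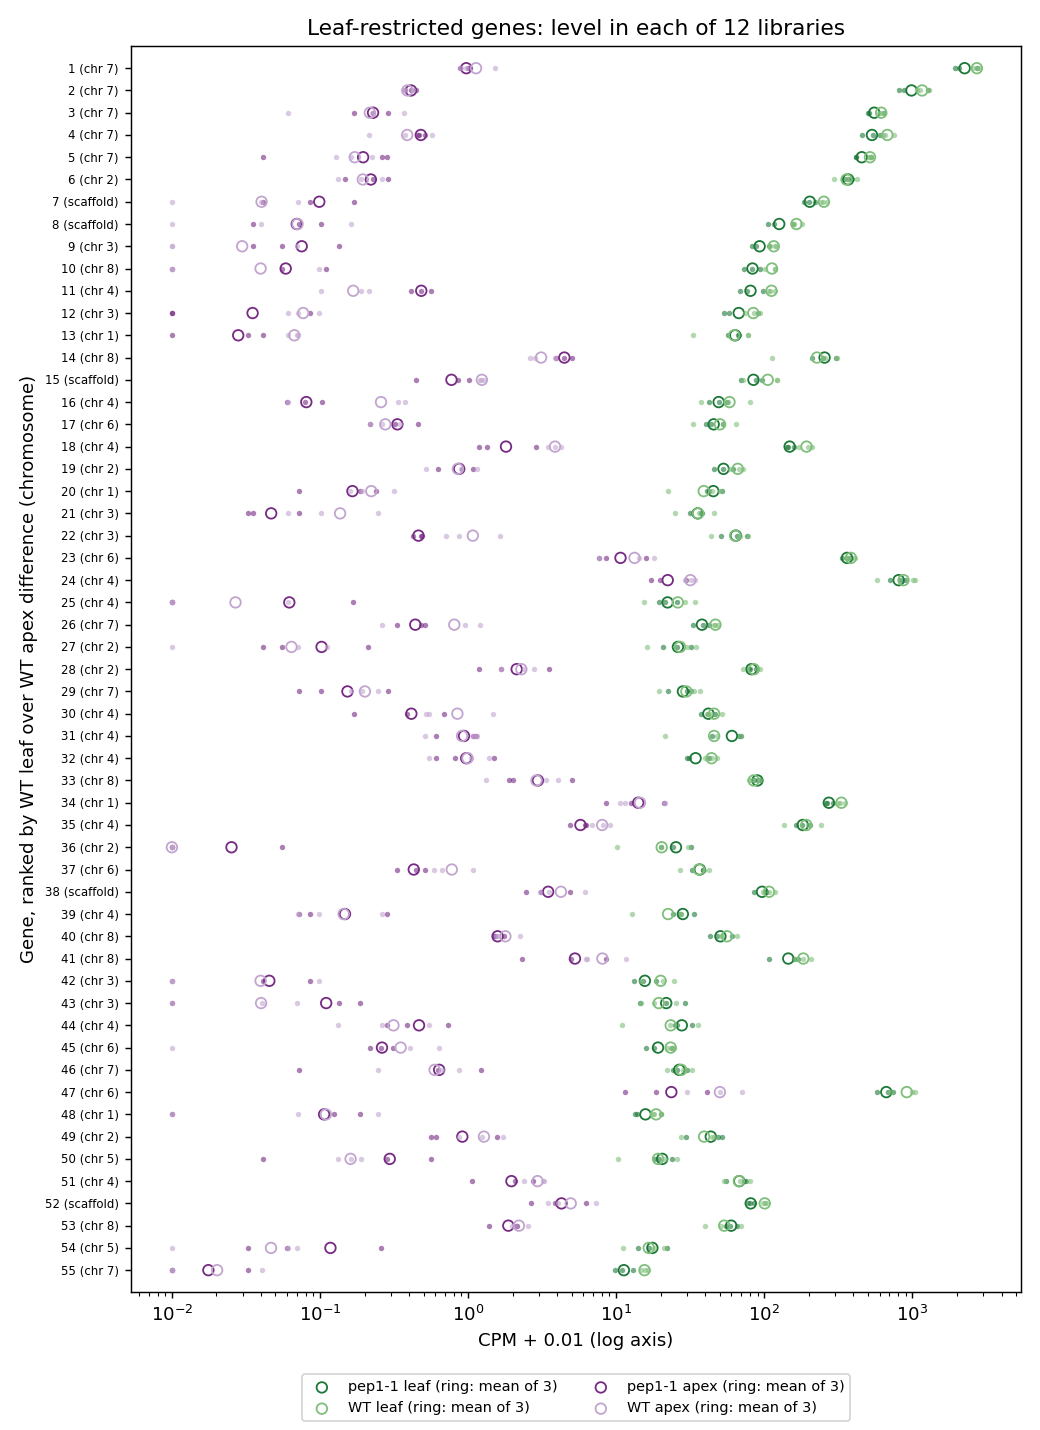
Level of each of the 55 leaf-restricted genes (rows, ranked by their WT difference between organs, with the chromosome in brackets) in pep1-1 leaf, WT leaf, pep1-1 apex and WT apex. The horizontal log axis is CPM plus 0.01, small dots are the 3 libraries of a group and rings are their means; leaf rings lie between 11.3 and 2724 CPM, while 40 of the 55 rings for pep1-1 apex and 36 for WT apex lie under 1 CPM.

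The highest of these transcripts was Aa_G804220 on chromosome 7 (4374059 to 4374713). It stood at 2739, 2066 and 1954 CPM in pep1-1 leaf, against 2866, 2585 and 2722 CPM in WT leaf. In the apex it stood at 0.874, 1.03 and 0.984 CPM in pep1-1 and at 1.51, 0.887 and 0.962 CPM in WT. Every leaf library was thus above every apex library in both genotypes, and the pep1-1 and WT libraries overlapped in each organ. Close by, with 1 gene model between them, Aa_G1035090 (4377532 to 4378078) reached 1272, 873 and 813 CPM in pep1-1 leaf, against 1288, 1076 and 1128 CPM in WT leaf. Its apex levels lay between 0.366 and 0.437 CPM in pep1-1 and between 0.354 and 0.416 CPM in WT. Again the genotypes overlapped in both organs.

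Levels of different genes were compared per kb of annotated span. On that scale the median of the 55 genes was 35.3 CPM per kb in pep1-1 leaf and 35.1 CPM per kb in WT leaf. The same pair of chromosome 7 genes led, at 3440 and 1802 CPM per kb in pep1-1 leaf and 4159 and 2128 CPM per kb in WT leaf. In the same region, 3 further genes were among the 10 highest per kb, with 348 to 723 CPM per kb in pep1-1 leaf and 441 to 805 CPM per kb in WT leaf. The other 5 were on chromosome 6 (15171197 to 15173009 and 20638553 to 20639769), chromosome 2 (24242668 to 24244082), scaff_46459_1 (1 to 249) and scaff_39674_1 (23386 to 23947), and spanned 224 to 368 CPM per kb in pep1-1 leaf and 254 to 505 CPM per kb in WT leaf. Apex levels per kb were highest for 2 of these. The scaff_46459_1 gene stood at 17.1 CPM per kb in pep1-1 apex and 19.8 CPM per kb in WT apex, and the first chromosome 6 gene at 13.0 CPM per kb in pep1-1 apex and 27.7 CPM per kb in WT apex.

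Expression in the apex was a trace for most of the genes, and the traces fell into different ranges. In pep1-1 apex 14 genes had a mean under 0.1 CPM, 26 lay between 0.1 and 1 CPM, 11 between 1 and 10 CPM and 4 at 10 CPM or more. In WT apex the same classes held 14, 22, 15 and 4 genes. The median level was 0.420 CPM in pep1-1 apex and 0.378 CPM in WT apex. Set against the leaf level of the same gene, the apex level had a median of 0.710% in pep1-1 and 0.788% in WT, with a highest value of 5.27% in pep1-1 and 5.47% in WT. It was under 0.1% for 14 genes in pep1-1 and 15 in WT.

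The lowest traces rested on a few reads. On chromosome 2 (1762367 to 1765745) a gene had 0, 0 and 2 reads in pep1-1 apex and no read in any WT apex library, against 874, 716 and 580 reads in pep1-1 leaf and 395, 669 and 735 reads in WT leaf. With 3 reads over the group as the floor, its WT leaf level was at least 582-fold higher than its WT apex level. It was the only one of the 55 genes without a read in WT apex, and in pep1-1 apex each gene had at least 1. Totals of 3 reads or fewer over a group were seen for 4 genes in pep1-1 apex and 9 in WT apex.

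Among abundant genes the relative trace differed widely. The 5 chromosome 7 genes above 400 CPM in leaf had apex levels of 0.0395% to 0.0880% of leaf in pep1-1 and 0.0313% to 0.0558% in WT. The gene on chromosome 2 (24242668 to 24244082) stood at 368 ± 23.9 CPM in pep1-1 leaf and 359 ± 64.8 CPM in WT leaf (SD, n = 3 each), with an apex level of 0.0572% of leaf in pep1-1 and 0.0514% in WT. Other abundant genes had far higher apex shares. On chromosome 4 (19005675 to 19010309) the apex level was 2.76% of leaf in pep1-1 and 3.63% in WT, and on chromosome 6 (20638553 to 20639769) it was 2.95% in pep1-1 and 3.46% in WT. On chromosome 6 (15171197 to 15173009) it was 3.53% in pep1-1 and 5.47% in WT.

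At the other end, a few genes kept a clear level in the apex. The gene on chromosome 6 (15171197 to 15173009) stood at 40.8, 18.5 and 11.4 CPM in pep1-1 apex, against 70.5, 50.0 and 29.9 CPM in WT apex. The gene on chromosome 4 (19005675 to 19010309) stood at 29.6, 19.9 and 17.3 CPM in pep1-1 apex, against 34.1, 29.1 and 31.8 CPM in WT apex. The libraries of the 2 genotypes overlapped for both genes. The 5 genes with the highest apex level held 64.5% of the summed level of the 55 in pep1-1 apex and 69.9% in WT apex. In the sum over all 55 genes, pep1-1 apex libraries stood at 140, 131 and 83.7 CPM, against 182, 183 and 139 CPM in WT apex, with pep1-1 apex replicate 3 the lowest. For the 50 genes left after taking out the 5 highest in WT apex, the sums were 40.1, 50.9 and 36.5 CPM in pep1-1 apex and 46.8, 58.3 and 46.6 CPM in WT apex, and the genotypes overlapped.

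Position set a small group of genes apart. Within 132.6 kb of chromosome 7 (4350671 to 4483226) lay 19 gene models, of which 7 were leaf-restricted. The interval was drawn from the first to the last gene of the longest run of leaf-restricted genes on that chromosome, the only one searched in this way. Genes were joined into this run over gaps much wider than the 10 kb used for neighbours, with other models between them. At 10 kb the block and the pair described below are separate. The ends of the interval, its number of leaf-restricted genes, their density and their share of the summed level therefore follow from how it was drawn. These 7 genes held 47.5% of the summed level of the 55 in pep1-1 leaf and 48.8% in WT leaf. Adjacent models made up a block of 4 genes (4371311 to 4372153, 4374059 to 4374713, 4376600 to 4377264 and 4377532 to 4378078), with gaps of 1905, 1886 and 267 bp. Further along lay an adjacent pair (4479182 to 4479946 and 4481692 to 4483226), 1745 bp apart. The remaining gene (4350671 to 4352485) stood at the edge of the interval. The spans of the 7 models ran from 547 to 1815 bp.

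The block was not uniform in level. Its genes stood, in order of position, at 455, 2253, 11.3 and 986 CPM in pep1-1 leaf and at 517, 2724, 15.5 and 1164 CPM in WT leaf. The adjacent pair stood at 553 and 533 CPM in pep1-1 leaf and at 616 and 678 CPM in WT leaf. The weakest gene of the block (4376600 to 4377264), between the 2 most abundant, had 1 read over the 3 pep1-1 apex libraries and 1 over the 3 WT apex libraries. The 12 other models of the interval had a median leaf over apex difference of 0.38 (log2 of CPM plus 1) in WT. Of these 12, 2 reached a difference of 1, and 4 stayed under 1 CPM in WT leaf. A model between the block and the pair (4417240 to 4420696) stood at 187 CPM in pep1-1 leaf, 162 CPM in WT leaf, 193 CPM in pep1-1 apex and 137 CPM in WT apex, so a gene with a like level in both organs lay inside the run. Near-identical copies in such a run may share reads, which the deposited counts cannot show.

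**Figure D2:**
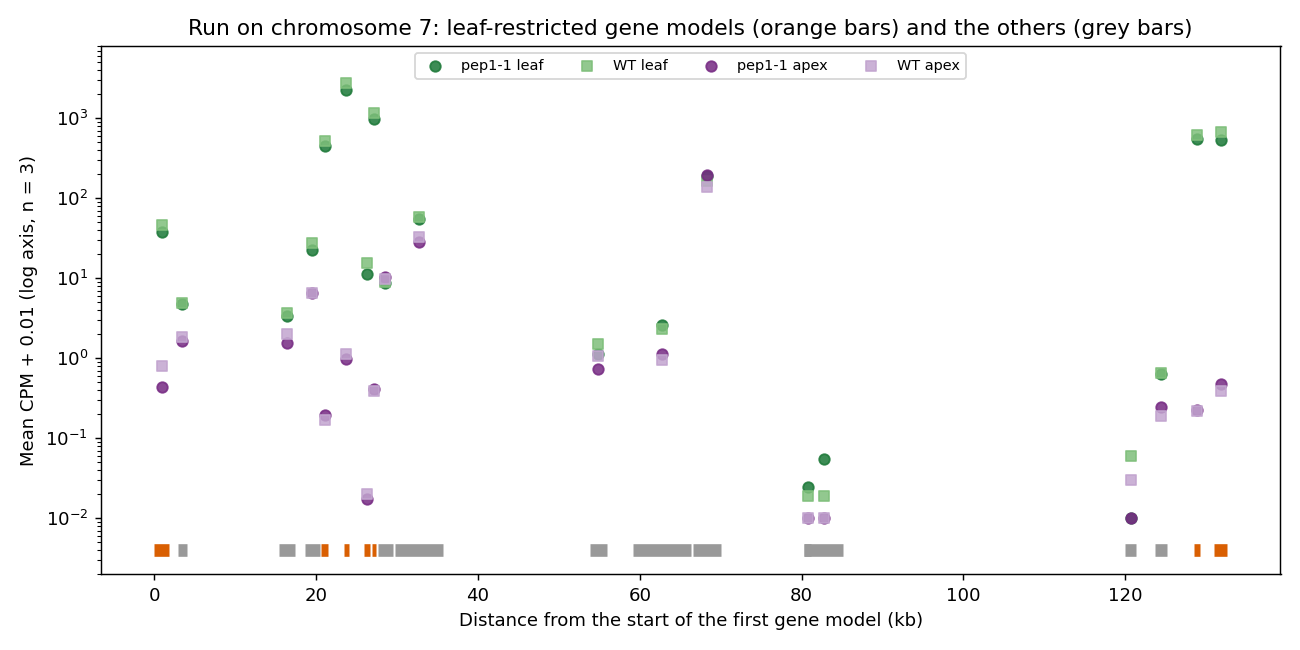
The 19 gene models of the chromosome 7 interval by distance in kb from the start of the first, with the mean level of each (CPM plus 0.01, log axis, n = 3) in pep1-1 leaf, WT leaf, pep1-1 apex and WT apex. Bars at the bottom mark the spans of the 7 leaf-restricted models in orange and of the other 12 in grey; 5 of the 7 stood above 400 CPM in both leaf groups and at or under 1.12 CPM in both apex groups.

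Outside that interval the genes were scattered. Of the 55, 12 lay on chromosome 4, 9 on chromosome 7, 6 each on chromosomes 2, 3 and 8, 5 on chromosome 6, 4 on chromosome 1, 2 on chromosome 5 and 5 on unplaced scaffolds. Chromosome 4 held 21.8% of them and 9.62% of the 13330 genes at 10 CPM or more in WT leaf, and chromosome 8 held 10.9% and 19.0%. Another leaf-restricted gene lay within 10 kb of 8 of the 55. Apart from the 6 on chromosome 7 these were an adjacent pair on chromosome 4 (19005675 to 19010309 and 19017945 to 19019639), 7635 bp apart, at 808 and 28.2 CPM in pep1-1 leaf and 871 and 22.4 CPM in WT leaf. The 94 gene models next to a leaf-restricted gene that were not themselves restricted had a median leaf over apex difference of 0.06 in WT, against 0.07 over all genes, and 13.8% of them reached a difference of 1, against 13.1% of all genes.

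The annotated spans of the 55 genes had a median of 1695 bp, against 1940 bp over all genes and 2455 bp over genes at 10 CPM or more in WT leaf. Spans under 1 kb were found for 13 of 55 (23.6%), against 18.8% of all genes and 5.55% of genes at 10 CPM or more in WT leaf. None overlapped another gene model, and 2 had more than 1 annotated transcript. These are descriptions of spans in the deposited coordinates, which may include introns.

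Whether the restriction was also present in the mutant was asked of the 6 libraries that had not been used to choose the genes. Each of the 55 genes was higher in pep1-1 leaf than in pep1-1 apex, with no overlap between libraries, and each passed the threshold (edgeR, adjusted p from 7.14e-08 to 9.89e-05). The background was high. Of the 23003 genes tested, 65.9% passed, 34.1% as higher and 31.9% as lower in pep1-1 leaf, and of genes with a read 53.6% were higher and 15.3% lower with no overlap. All 55 genes passed the low-count filter through their leaf libraries, so the count of calls is given without weight. Size was less common than direction. A difference of 4 or more on the scale of the rule was met by 52 of the 55 genes (94.5%), against 0.214% of 28557 genes. That background includes the 55 genes, and among the others 0.0316% met it. It also holds many genes of low leaf level, which cannot reach 4 with the pseudocount of 1 CPM. The background is thus not matched in level.

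Edges of the range show what these differences were. On chromosome 1 (9139508 to 9141482) a gene stood at 57.0, 67.8 and 66.3 CPM in pep1-1 leaf, against 0.0312, 0 and 0.0229 CPM in pep1-1 apex. It had the largest fitted difference, 11.04 (log2, SE 0.24, edgeR adjusted p = 7.80e-08), a value that rests on 2 apex reads and on the prior count of the fit. The smallest was that of the gene on scaff_46459_1 (1 to 249), which stood at 85.2, 77.3 and 80.4 CPM in pep1-1 leaf, against 3.87, 6.26 and 2.65 CPM in pep1-1 apex. Its log2 difference was 3.69 (SE 0.26, edgeR adjusted p = 4.47e-06). For Aa_G804220 it was 10.62 (SE 0.23) and for Aa_G1035090 it was 10.70 (SE 0.28), with edgeR adjusted p of 7.80e-08 and 1.38e-07. The median over the 55 genes was 6.57, against 0.04 over all genes tested.

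Applied to the pep1-1 libraries, the same threshold chose 61 genes. The 52 shared genes were 94.5% of the WT list and 85.2% of the pep1-1 list. The 3 genes that met it in WT alone lay close to the threshold in the mutant, at 3.96 on scaff_46459_1 (1 to 249), 3.93 on chromosome 1 (2886921 to 2888450) and 3.60 on chromosome 7 (4376600 to 4377264). In WT the 3 genes just inside the threshold had values of 4.10, 4.08 and 4.03, and the 3 just outside had 3.98, 3.97 and 3.95. The pseudocount of 1 CPM keeps out genes of low leaf level, so the weakest gene taken stood at 15.5 CPM in WT leaf.

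**Figure D3:**
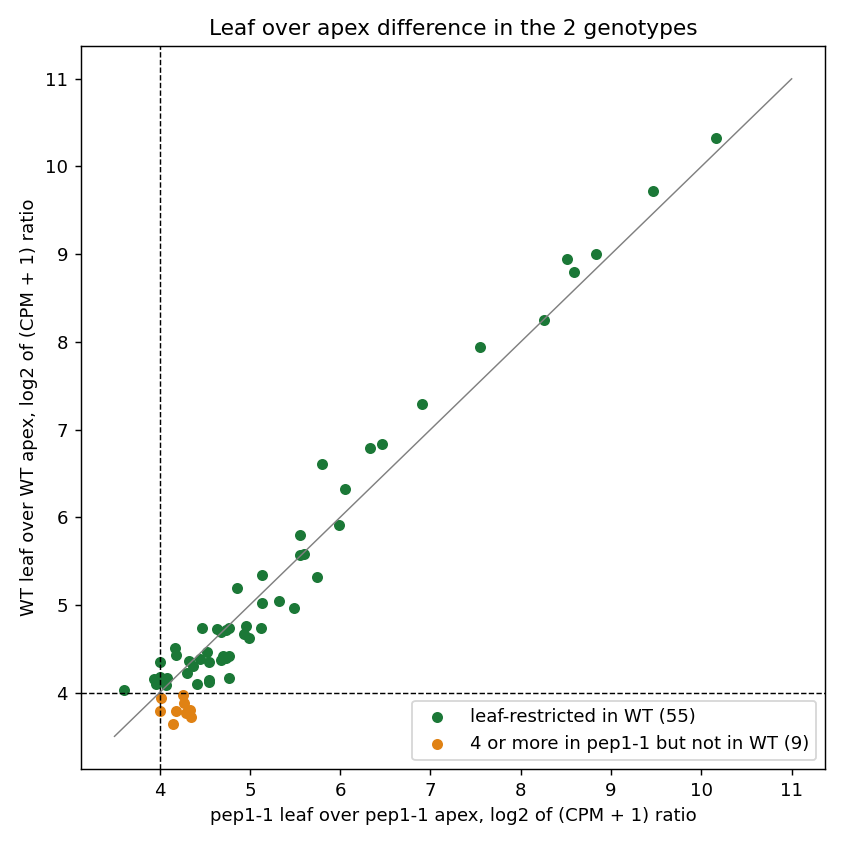
Difference between organs in the 2 genotypes, as log2 of the ratio of leaf to apex mean CPM plus 1, for pep1-1 (horizontal axis) and WT (vertical axis). Green dots are the 55 genes chosen in WT, orange dots the 9 genes at 4 or more in pep1-1 only; dashed lines mark the threshold of 4 and the grey line equality, and 52 green dots lie right of the vertical dashed line.

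Levels in leaves were next compared between pep1-1 and WT. None of the 55 genes passed the threshold in edgeR (smallest adjusted p = 0.154), where 0.414% of 22936 genes did, 0.249% as higher and 0.166% as lower in pep1-1. At an unadjusted p under 0.05 there were 13 of the 55, each lower in pep1-1, against 9.74% of all genes tested. That count was 3 with all 12 libraries in one fit and lay between 7 and 21 with 1 library left out, and it held 4 higher among 17 without WT leaf replicate 2 and 1 higher among 8 without WT leaf replicate 3. DESeq2 called 2, both lower in pep1-1, against 1.4% of all genes. Log2 fold changes lay between -0.44 and 0.45, with SE from 0.07 to 0.37. Of the 55, 37 were below 0 and 18 above it, with a median of -0.12 against 0.00 over all genes. The WT leaf libraries had helped to choose the genes, which favours genes whose WT leaf level was high by chance, so nothing is read from this balance.

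The 10 genes whose libraries did not overlap were all lower in pep1-1 leaf, where the background was 9.49% of genes lower and 5.29% higher. Their log2 fold changes ran from -0.44 to -0.25, with edgeR adjusted p from 0.154 to 0.460. The scaff_46459_1 gene had the smallest p of the 55. It stood at 85.2, 77.3 and 80.4 CPM in pep1-1 leaf, against 97.5, 101 and 103 CPM in WT leaf (log2 fold change -0.28, SE 0.07, edgeR adjusted p = 0.154; DESeq2 adjusted p = 0.0475). The gene on chromosome 8 (14466963 to 14470167) stood at 94.0, 82.3 and 73.4 CPM in pep1-1 leaf, against 119, 101 and 118 CPM in WT leaf (log2 fold change -0.41, SE 0.11, edgeR adjusted p = 0.213; DESeq2 adjusted p = 0.0488). Both were lower in each mutant library than in each WT library, by a margin that passed in DESeq2 and not in edgeR.

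**Figure D4:**
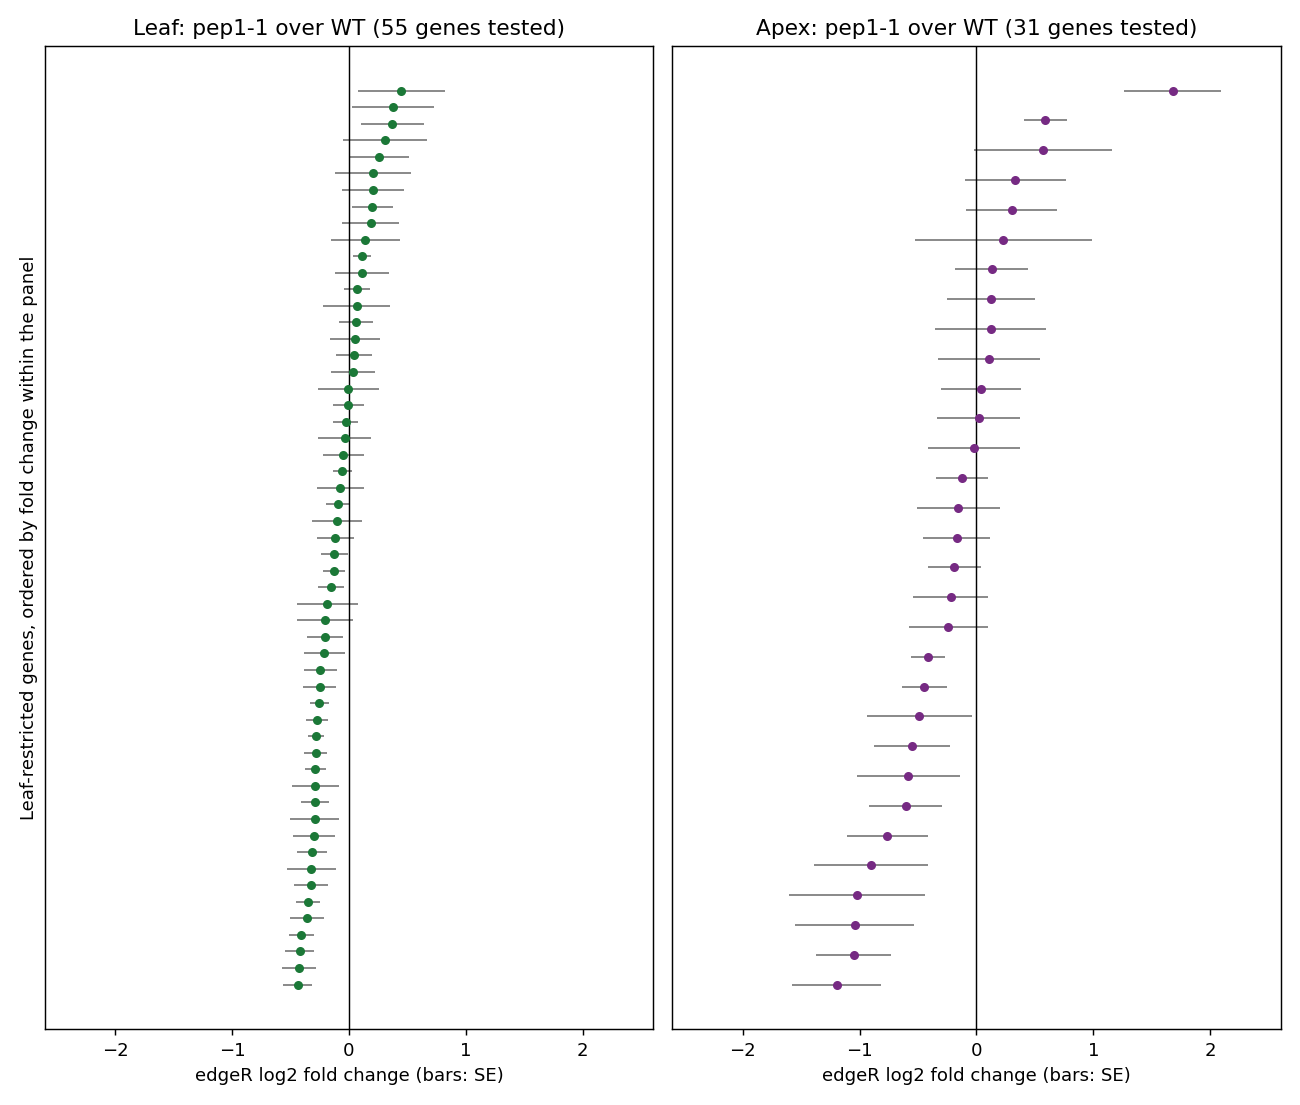
Fitted log2 fold changes of pep1-1 over WT (edgeR, dots, with SE as bars) for the 55 leaf-restricted genes in leaf and for the 31 that passed the low-count filter in apex, each panel ordered by its own values. In leaf the values lie between -0.44 and 0.45 and in apex between -1.20 and 1.68, and no gene passed the threshold in either organ.

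Single leaf libraries were compared in 2 groups of genes, drawn after the values had been seen and therefore given without a test. In the 24 genes that were low in WT leaf replicate 1, the summed level was 2719, 3057 and 2377 CPM in pep1-1 leaf and 2027, 3523 and 3451 CPM in WT leaf. In the other 31 genes it was 8702, 6913 and 6745 CPM in pep1-1 leaf and 9114, 8509 and 8782 CPM in WT leaf. The low sum of WT leaf replicate 1 in the first group restates how that group was drawn. In the second group replicate 1 was the highest WT leaf library for 15 of 31 genes and replicate 3 for 11. In the mutant, replicate 3 had the lowest sum in both groups. Replicate 2 was the highest pep1-1 leaf library for 21 of the 24 genes, and replicate 1 for 26 of the 31. Replicate 2 was also the highest WT leaf library for 19 of the 24. It was the shallowest library of both leaf groups, and the part of depth in these patterns was not tested.

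A gene of the first group on chromosome 4 (5943274 to 5944984) stood at 67.1, 70.1 and 44.1 CPM in pep1-1 leaf, against 21.3, 68.3 and 47.9 CPM in WT leaf. The log2 ratio of its level in WT leaf replicate 1 to the mean of the other WT leaf libraries was -1.45, the lowest of the 55. A gene of the second group on chromosome 7 (4371311 to 4372153) stood at 529, 419 and 418 CPM in pep1-1 leaf, against 523, 519 and 510 CPM in WT leaf. Between WT leaf libraries the coefficient of variation had a median of 31.3% in the first group and 8.97% in the second. The 7 genes of the chromosome 7 interval all belonged to the second group. The median fitted log2 fold change of pep1-1 over WT was 0.06 in the first group and -0.25 in the second, where the low library that defined the first group enters its WT mean. From mean levels without WT leaf replicate 1, on the library-sum scale and not from a fit, the median log2 ratio was -0.20 in the first group and -0.24 in the second. The first group was drawn for WT leaf replicates 2 and 3 standing above replicate 1, which favours a value below 0 there. Nothing is therefore read from the nearness of these medians.

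Without WT leaf replicate 1, 1 of the 55 genes passed the threshold, against 1.94% of 22992 genes. It was the gene on chromosome 6 (15171197 to 15173009), which stood at 682, 741 and 577 CPM in pep1-1 leaf, against 702, 999 and 1047 CPM in WT leaf. With all libraries the fold change was -0.43 on the log2 scale (SE 0.14, adjusted p = 0.358 in edgeR), and without that replicate it was -0.57 (SE 0.10, adjusted p = 0.0135 in edgeR). Without pep1-1 leaf replicate 1 another gene passed, on chromosome 4 (7094125 to 7096139), where 0.17% of genes did. Without WT leaf replicate 1, 47 of the 55 genes were below 0 and 8 above. The median of the 55 was -0.16, against -0.006 over all genes tested. In edgeR 17 had an unadjusted p under 0.05, against 14.9% of genes. The other WT leaf libraries had also helped to choose the genes, so nothing is read from this balance either. DESeq2 then called 4 of the 55, all lower in pep1-1, against 2.76% of genes, and the 2 it called with all libraries were not among them. Libraries then did not overlap for 18 genes lower and 0 higher in pep1-1 leaf, where the background was 20.5% lower and 10.5% higher.

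**Figure D5:**
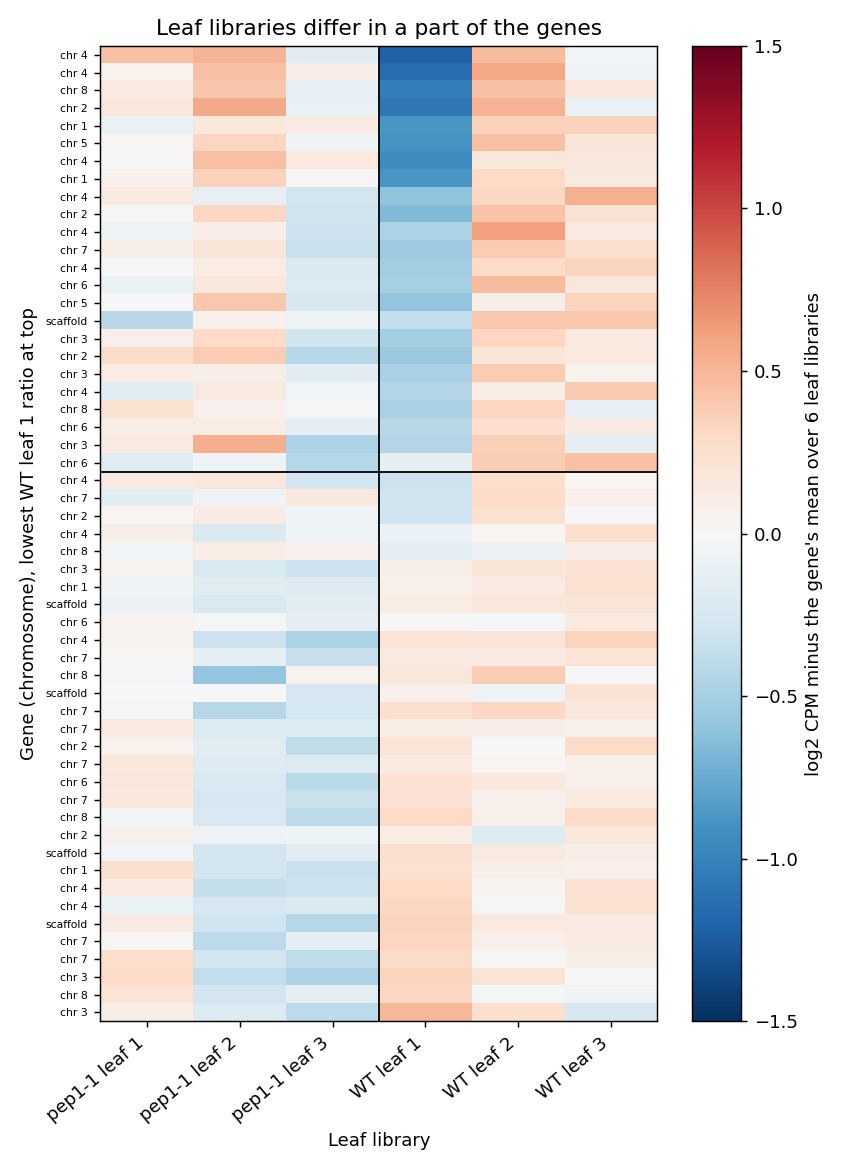
Level of the 55 genes (rows, chromosome at the left) in the 3 pep1-1 leaf and 3 WT leaf libraries (columns), as log2 CPM minus the gene's mean over the 6 leaf libraries. Rows run from the lowest to the highest ratio of WT leaf 1 to the other WT leaf libraries. The horizontal line separates the 24 genes more than 0.5 below them from the other 31. It is a cut in a graded series, and the first gene under it had a log2 ratio of -0.47.

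In the apex the comparison between genotypes was limited by the traces. Only 31 of the 55 genes passed the low-count filter. The 24 that did not had 1 to 35 reads each over the pep1-1 apex libraries and 0 to 34 over the WT apex libraries, and 294 and 224 reads in all. None of the 31 passed the threshold in edgeR (smallest adjusted p = 0.186) or in DESeq2, where the edgeR background was 0.235% of 22157 genes, 0.153% higher and 0.0812% lower in pep1-1. At an unadjusted p under 0.05 there were 6, with 2 higher and 4 lower in pep1-1, against 10.7% of genes tested. Log2 fold changes lay between -1.20 and 1.68, with SE from 0.15 to 0.76 and a median SE of 0.35. Over all 55 genes, libraries did not overlap for 2 genes higher and 6 lower in pep1-1 apex, where the background was 4.71% and 11.4%. The WT apex libraries had also helped to choose the genes, so these counts too are descriptions.

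Of the abundant apex traces, the gene on chromosome 6 (15171197 to 15173009) had a log2 fold change of -1.04 (SE 0.51, edgeR adjusted p = 0.535), with its libraries in the 2 genotypes overlapping. In each same-numbered pair of apex libraries this gene was lower in pep1-1. With the replicate number as a block its adjusted p was 0.00340 in edgeR, and it was the only one of the 31 to pass, where 2.71% of genes tested did. The gene on chromosome 8 (28678209 to 28680803) stood at 4.40, 3.93 and 5.03 CPM in pep1-1 apex, against 2.61, 3.86 and 2.84 CPM in WT apex (log2 fold change 0.59, SE 0.18, edgeR adjusted p = 0.297). The gene on chromosome 4 (7485086 to 7489879) stood at 2.87, 1.18 and 1.33 CPM in pep1-1 apex, against 3.45, 3.86 and 4.25 CPM in WT apex (log2 fold change -1.05, SE 0.32, edgeR adjusted p = 0.290). Both were separated by library and neither passed the threshold.

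Whether the genotype effect differed between organs was tested with the interaction term over all 12 libraries. The term subtracts the WT leaf over WT apex difference by which the genes were chosen. That choice favours values below 0, so counts and signs among the 55 are descriptions. None of the 55 genes passed in edgeR, where no gene of 23517 did (background 0%), and 5 of the 55 had an unadjusted p under 0.05, against 4.21% of all genes tested. All 55 were tested here, and for the 24 that failed the apex filter the term rests on trace reads. Among the 5 was such a gene, on scaff_59520_1 (43 to 1250), with 11 reads in pep1-1 apex and 3 in WT apex. DESeq2 called 1 of the 55 and 0.0298% of all genes. It was the gene on chromosome 4 (7094125 to 7096139), which was singled out after its values had been seen. It stood at 97.7, 76.1 and 68.2 CPM in pep1-1 leaf, against 109, 108 and 119 CPM in WT leaf. In the apex it stood at 0.468, 0.401 and 0.549 CPM in pep1-1, against 0.178, 0.0918 and 0.203 CPM in WT, on 15, 16 and 24 reads and 6, 3 and 4 reads. Every pep1-1 library was thus below every WT library in leaf and above it in apex. The log2 fold change was -0.44 in leaf (SE 0.12, edgeR adjusted p = 0.264) and 1.68 in apex (SE 0.42, edgeR adjusted p = 0.186). The interaction was -2.13 (SE 0.42, edgeR adjusted p = 1.000; DESeq2 adjusted p = 0.0481).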

How the data were processed

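Leaves and shoot apices were sequenced as polyadenylated RNA in 12 libraries. The authors deposited raw read counts, 1 whole number for each transcript and library. The submitters' processing notes list TopHat, bedtools and DESeq2 1.10.0 and give none of them a role. For build, annotation and strandedness the entry is: not given in the sources used here. The files do not pair identifiers with names, so the gene lists, the organ markers and PEP1 itself were not examined.

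For each of 35465 genes the transcript with most reads was used. CPM is the count scaled to the sum of these rows, and level per kb divides it by the annotated span, which includes any introns. Comparisons were made in edgeR 4.0.16 (R 4.3.3) by its quasi-likelihood F test, with TMM factors, filterByExpr, robust dispersion and Benjamini-Hochberg adjustment over all genes tested, with a threshold of 0.05. Genotypes were fitted within each organ, organs within pep1-1, and the interaction over all 12 libraries. The SE was taken as the size of the log2 fold change divided by the root of F. The script was tested on simulated counts. Alternatives included DESeq2 1.42.0, other filters and scalings, the replicate number as a block and each library left out.

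The rule for named genes took the 10 highest levels per kb in WT leaf, the 5 largest leaf over apex differences, the 3 genes on each side of the threshold, genes with 0 reads in WT apex, runs within 10 kb, and genes past 0.05 between genotypes. Genes shown as examples beyond this rule were chosen after their values were seen. The members and lists were chosen with earlier results of these data known. Floors cover counting error only, since reads without molecular identifiers are not independent molecules.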

Additional observations from a re-analysis of the deposited data

Results flagged for a closer look

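Among the 55 leaf-restricted genes, the gene on chromosome 4 (7094125 to 7096139) had fitted genotype differences of opposite sign in the 2 organs. Each pep1-1 leaf library was below each WT leaf library, and each pep1-1 apex library was above each WT apex library. Neither difference passed in edgeR with all libraries (adjusted p = 0.264 in leaf and 0.186 in apex). The gene was picked for this pattern. Its interaction was -2.13 on the log2 scale, with an unadjusted p of 0.000239 in edgeR that did not pass after adjustment over all genes. Over 17 alternatives the interaction lay between -2.34 and -1.82, with adjusted p from 0.0481 in DESeq2 to 1.000. The apex difference rests on 55 reads in pep1-1 and 13 in WT. The WT libraries by which the genes were chosen enter the interaction, which favours values below 0. Groups of 3 libraries are too small for a search for single outlying values.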

How the results depend on the processing

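The number of leaf-restricted genes followed the definition. It was 259 with a pseudocount of 0.1 CPM and 19 with 5 CPM, 171 at a log2 fold of 3 and 21 at 5, and 36 with TMM factors; stricter and looser definitions change it by construction. Leaving out 1 WT library gave 52 to 65. Of the 55 genes, 41 met the fold in pep1-1 with TMM factors and 55 with a pseudocount of 0.1 CPM, and 49 to 53 with 1 pep1-1 library left out. All 55 passed between pep1-1 leaf and pep1-1 apex in each of 12 alternatives. In the main fit 65.9% of all genes tested passed, so this count too is given without weight. Calls between genotypes appeared in a few settings: in leaf 2 with DESeq2, 0 to 1 in edgeR with 1 library left out and 4 with DESeq2 without WT leaf replicate 1 (added after seeing the data), in apex 1 with the replicate block, and for the interaction 1 with DESeq2. The leaf libraries of the genotypes did not overlap for 10 genes, and for 18 without WT leaf replicate 1 (also added). In leaf the single call without pep1-1 leaf replicate 1 was the gene on chromosome 4 (7094125 to 7096139), at -0.61 on the log2 scale (edgeR adjusted p = 0.0458). Its interaction was -2.15 with DESeq2. Of the 15 genes followed through the alternatives, 14 were followed only between pep1-1 leaf and pep1-1 apex. None of these changed sign, which carries no weight because the genes were chosen for a large leaf excess in WT. The gene on chromosome 4 (7094125 to 7096139) was also followed between genotypes and kept its sign in each comparison. The other genes were not followed singly between genotypes. In leaf the number of the 55 genes above 0 ran from 8 to 25 over the alternatives. The causes were not tested.

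Deviations of same-numbered libraries correlated at 0.047, 0.31 and -0.16 in leaf, at 0.40, 0.0046 and 0.39 in apex, and at 0.15, -0.071 and -0.033 between the organs of pep1-1. Not every pair exceeded 0.1 and not every library correlated best with its own number. Replicate numbers were therefore treated as names only in the main fits, by a single decision for all comparisons. In apex, numbers 1 and 3 did correlate best with their own number. There pep1-1 replicate 1 with WT replicate 3 gave -0.42, and pep1-1 replicate 3 with WT replicate 1 gave -0.36. The labels do not say whether libraries were paired, so apex calls are given with and without a replicate block. With a replicate block, calls among the leaf-restricted genes were 0 in leaf, 1 in apex, 55 between organs and 0 for the interaction. Over all genes, 95 were called in leaf, against 322 with DESeq2, 157 without a filter, 54 with the block and 39 to 445 with 1 library left out. In apex 52 were called, against 412, 89, 600 and 15 to 140 in the same settings and 320 with all 12 libraries in one fit. In apex the low-count filter left out 24 of the 55 genes; without it all 55 were tested and none passed in edgeR.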

Other observations

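At the threshold of 4, 9 genes met the leaf over apex difference in pep1-1 and not in WT, with values of 4.01 to 4.34 in pep1-1 and 3.64 to 3.97 in WT. On chromosome 1, 2 of them lay close together (19674025 to 19676359 and 19690875 to 19692589). They averaged 49.2 and 45.4 CPM in pep1-1 leaf, against 76.7 and 68.0 CPM in WT leaf, and 1.77 and 1.30 CPM in pep1-1 apex, against 4.60 and 3.95 CPM in WT apex. Both averages were lower in the mutant in each organ, which was not tested for these genes. By the mirrored rule, 35 genes were restricted to the apex in WT, against the 55 restricted to leaves.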
